A study of Mus musculus with 21 samples.

Results

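Lung RNA of mice given 10% ethanol in the airway was compared with lung RNA of mice given saline, across all genes counted. The comparison used the 3 libraries labelled 10% ethanol (animals 12, 13 and 14), which served as controls for vitamin E acetate (VEA), and the 3 libraries labelled saline (animals 6, 8 and 10), which served as controls for propylene glycol (PG). These are 6 of the 21 libraries of the series, and the other 15 come from animals given PG at 826 or 1100, or VEA at 3.12, 6.25 or 12.5. Sources differ on the unit of these doses, which is mg/kg for single samples but mg/mL in the design text, and none is printed after them here. All animals were C57BL/6 mice with no other treatment named, so the ethanol and saline groups differed, per the labels, in the instilled liquid only. Each animal received 50 µL into the trachea once a day for 14 days with the kill on day 15, and RNA came from lungs whose airspaces had first been rinsed by bronchoalveolar lavage. The labels give neither the age nor the sex of the animals. No label says what VEA was dissolved in. Cells that lavage removed are not in the tissue measured.

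Ethanol is broken down mainly by alcohol dehydrogenases to acetaldehyde, which aldehyde dehydrogenases turn into acetate, and the cytochrome P450 Cyp2e1 and catalase can also oxidise ethanol. Reactive products of this breakdown, and many foreign compounds, are known to engage NRF2, a transcription factor of antioxidant genes. Planar foreign chemicals and tryptophan products engage the aryl hydrocarbon receptor (AHR), which binds the xenobiotic response element and switches on Cyp1a1, Cyp1b1 and, with NRF2, Nqo1. Club cells and type II cells of the lung are rich in such enzymes.

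Between ethanol and saline lungs, no gene passed the test. Of 14727 genes tested with edgeR's quasi-likelihood test, 0 (0%) had a Benjamini-Hochberg adjusted p below 0.05, and the smallest adjusted p was 0.234. At an unadjusted p below 0.05 there were 494 genes (3.35%) with higher and 398 (2.70%) with lower levels in ethanol lungs, 892 (6.06%) in all. With the same threshold on adjusted p, limma-voom called 0 genes, with 850 at an unadjusted p below 0.05, and DESeq2 called 1 gene, with 995. That gene was Axin2, at an adjusted p of 0.0148. With no filter on low counts, edgeR called 17 genes, the 13 higher being Axin2, Bpifb1, Cbr3, Clca1, Col1a1, Cspg4, Cyp1a1, Eomes, Lrg1, Lyve1, Mt2, Npr3 and Plac8, and the 4 lower Chia1, Kif23, Rpp30 and Zbtb16. The 3 ethanol values lay above the 3 saline values for 691 genes (4.69%) and below them for 643 genes (4.37%), together 9.06%. If all arrangements of 3 and 3 values are equally likely, full separation has a probability of 0.1. Lack of overlap alone therefore sets no gene apart. In the same fit, VEA at 12.5 against ethanol had 1430 called genes (9.71%), VEA at 6.25 had 849 (5.76%) and VEA at 3.12 had 812 (5.51%). PG at 1100 against saline had 1077 (7.31%), and PG at 826 had 20 (0.136%).

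**Figure D1:**
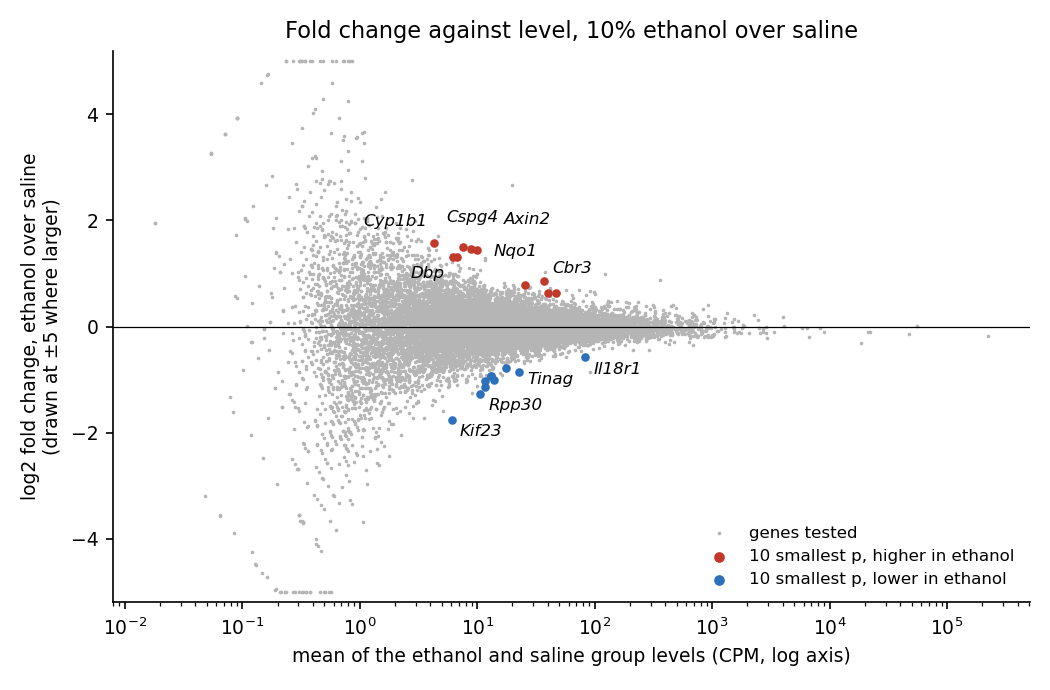
Each point is 1 of the genes tested, with the mean of both group levels in CPM (log axis) across and the log2 fold change of ethanol over saline upwards. Colour marks the 10 genes of smallest p in each direction among those averaging 5 CPM or more in the higher group, and they lie at the edge of a cloud centred near 0.

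Depth was alike in both groups. Total counts were 9340375 to 9960450 in ethanol libraries and 9698442 to 11273751 in saline libraries, and at least 1 count was found for 15157 to 15773 genes in ethanol and 15015 to 15540 in saline libraries. Rn45s, the ribosomal RNA precursor, took 18.5% to 21.3% of counts in ethanol libraries and 21.6% to 22.0% in saline libraries, and these ranges did not overlap (exact permutation test, two-sided, p = 0.1, the smallest that 3 against 3 allows). A fit without Rn45s and haemoglobin counts called 0 genes, with 6.06% of genes at an unadjusted p below 0.05. Haemoglobin transcripts took 9.76% ± 1.11 of counts in ethanol lungs and 9.94% ± 3.64 in saline lungs (SD, n = 3 each; exact permutation p = 1), with saline 8 highest at 13.8% and saline 6 lowest at 6.49%. The lung label fitted the markers of its cells. Levels are in CPM, counts scaled by the TMM-adjusted total of the library, and values of single animals are given in the order 12, 13 and 14 for ethanol and 6, 8 and 10 for saline throughout. Sftpc, the surfactant protein of type II cells, was at 18686, 15623 and 15223 CPM in ethanol lungs and 15804, 24473 and 20803 CPM in saline lungs, and Scgb1a1, the club cell secretoglobin, was at 45259 to 62351 CPM in ethanol lungs and 47441 to 62601 CPM in saline lungs.

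Both groups held 1 library that stood apart in genes of the upper airway. Bpifa1, an antimicrobial protein of the nose and large airways, was at 2534, 432 and 232 CPM in the ethanol lungs, in the order 12, 13 and 14, and at 159, 290 and 2579 CPM in the saline lungs, in the order 6, 8 and 10. Ltf, the lactoferrin of glands and neutrophils, was at 55.1, 4.43 and 1.29 CPM in ethanol lungs against 4.14, 3.53 and 59.1 CPM in saline lungs. Krt15, a keratin of basal cells, was at 33.5, 2.70 and 0 CPM in ethanol lungs against 1.28, 0.852 and 25.1 CPM in saline lungs. Among the other basal and squamous genes listed, Krt13, Krt6a, Dsg3 and Sprr1b had no count in any library. Krt4, Krt17, Trp63, Krt5 and Krt14 had 34 to 89 counts each over all 21 libraries, too few to test. Bpifa1, Ltf and Krt15 were thus all high in ethanol 12 and saline 10. Without those 2 libraries, a choice made after seeing the data, edgeR called 1 gene, Cyp1a1 at an adjusted p of 0.0171, and 974 genes had an unadjusted p below 0.05. Fits without 1 of them alone are given beside Cyp1a1 and the mucous cell genes.

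Ethanol lungs differed from saline lungs about as much as animals of the same group differed from each other. Over 10598 genes that averaged 5 CPM or more in the 21 libraries, the root mean square difference in log2 CPM was 0.450 to 0.547 for the 9 pairs of an ethanol and a saline library, with a median of 0.498. It was 0.454 to 0.492 for the 3 pairs of ethanol libraries and 0.495 to 0.556 for the 3 pairs of saline libraries. The closest pair of all 15 was ethanol 14 with saline 6, an animal from each group. The saline animals were more unlike each other, with a median SD over genes of 0.260 on the log2 scale, against 0.213 in the ethanol animals.

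**Figure D2:**
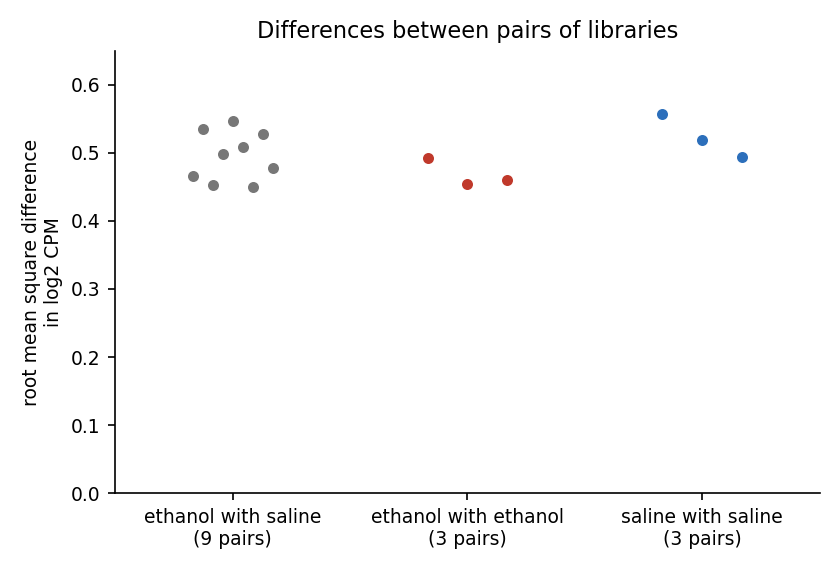
Each point is 1 pair of libraries, and the height is the root mean square difference in log2 CPM over 10598 genes. Pairs across the groups, at 0.450 to 0.547, overlap both the ethanol pairs and the saline pairs.

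The design bounded the size of most differences for abundant genes and not for rare ones. For 9176 of the 14718 genes with a count in either group (62.3%), the 95% interval of the log2 fold change lay within ±1, a 2-fold change in either direction. It lay within a 1.5-fold change for 4868 genes (33.1%). Among genes of 20 to 100 CPM in the higher group, 97.1% had an interval within a 2-fold change, and 66.1% within a 1.5-fold change. At 100 CPM or more these shares were 99.0% and 90.8%. At 1 to 5 CPM the interval lay within a 2-fold change for 4.48% of 3060 genes, and below 1 CPM for 0 of 805, so at this depth and spread a 2-fold difference could not be bounded for most transcripts below 5 CPM. Across all genes the median log2 fold change was -0.003, and the median of its size was 0.198.

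**Figure D3:**
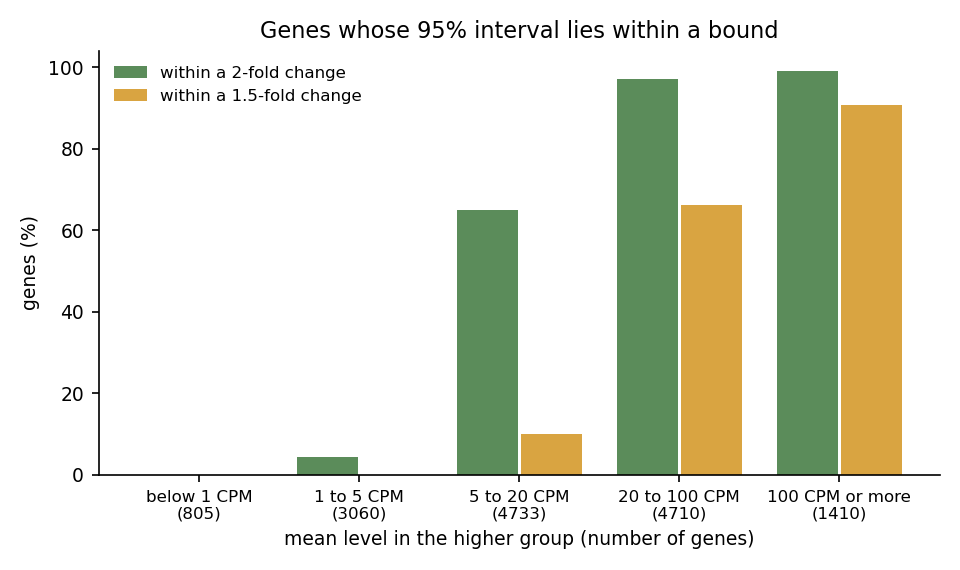
Bars give the percentage of genes whose 95% interval of the log2 fold change, ethanol over saline, lay within a 2-fold change (left bar of each pair) or a 1.5-fold change (right bar), by mean level in the higher group. The left bars climb to 97.1% at 20 to 100 CPM and 99.0% at 100 CPM or more.

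The gene of smallest p was Axin2, an inhibitor and target of Wnt signalling, on chromosome 11 at 108920349 to 108950783 on the mouse assembly GRCm38 (plus strand). Axin2 was at 12.0, 14.0 and 12.9 CPM in ethanol lungs and at 6.61, 3.90 and 3.50 CPM in saline lungs. Every ethanol value lay above every saline value, and saline 6 was the highest of its group. The log2 fold change was 1.47 ± 0.30 (SE; 95% interval 0.87 to 2.07), with an adjusted p of 0.234 in edgeR's quasi-likelihood test. In the other groups Axin2 averaged 9.70 and 5.98 CPM with PG at 826 and 1100, and 8.09, 11.8 and 10.1 CPM with VEA at 3.12, 6.25 and 12.5, so each of these means lay between those of the ethanol and saline lungs. Without saline 6, edgeR called Axin2 and the collagen gene Col1a1, each at an adjusted p of 0.0291.

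Cspg4, Fbln2, Pcdh1, Nav1 and Foxo1 were also among the 10 higher genes of smallest p. Cspg4 (chromosome 9, 56865033 to 56899870), the NG2 proteoglycan that marks pericytes, was at 10.9, 11.7 and 11.2 CPM in ethanol lungs and at 5.43, 1.95 and 4.38 CPM in saline lungs, with a log2 fold change of 1.50 ± 0.35 and an adjusted p of 0.450. Higd1b, another pericyte gene, was lower in ethanol lungs, at 26.7, 31.1 and 28.3 CPM in ethanol lungs against 34.1, 46.1 and 35.4 CPM in saline lungs. Fbln2, an extracellular matrix fibulin, was at 8.45, 7.34 and 12.8 CPM in ethanol lungs and at 4.64, 3.17 and 3.70 CPM in saline lungs. Both Cspg4 and Fbln2 were without overlap between the groups. Pcdh1, a protocadherin of airway epithelium, Nav1, a microtubule-binding protein, and Foxo1, a forkhead transcription factor held back by insulin signalling, had log2 fold changes of 0.78, 0.63 and 0.63, each with an adjusted p of 0.592.

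At the lower end stood Kif23 (chromosome 9, 61915905 to 61946774), the kinesin that completes cell division, at 1.76, 3.67 and 2.81 CPM in ethanol lungs against 7.30, 12.9 and 7.88 CPM in saline lungs. Its log2 fold change was -1.76 ± 0.39 (95% interval -2.54 to -0.97), with an adjusted p of 0.450. Its means in the PG and VEA groups, 7.10 to 18.0 CPM, were all nearer to saline. Rpp30, a subunit of ribonuclease P, was at 7.46, 5.08 and 6.26 CPM in ethanol lungs against 12.4, 16.1 and 16.7 CPM in saline lungs, a log2 fold change of -1.26 ± 0.29. Il18r1, the receptor chain that binds interleukin 18, was at 70.7, 64.0 and 66.1 CPM in ethanol lungs against 82.3, 103 and 114 CPM in saline lungs, a log2 fold change of -0.58 ± 0.15. None of these values overlapped between the groups. The other 7 of the 10 were Tinag of basement membranes, the poly(A) polymerase Papolg, the ribosome assembly factor Mrto4, the mismatch repair gene Msh3, Fam162b, Elmo2, which acts with Rac in engulfment, and the mitochondrial protease Pitrm1. Their log2 fold changes were -1.14 to -0.77, and the groups did not overlap. The end of Pitrm1 lies over Pfkp on the opposite strand, and no source used here says whether counting used strand, so reads of that pair may be mixed.

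No enzyme of ethanol breakdown passed the test, and the intervals of most lay within a 2-fold change. Adh1, the alcohol dehydrogenase of class I, was at 155, 149 and 126 CPM in ethanol lungs and at 168, 154 and 146 CPM in saline lungs, a log2 fold change of -0.12 (95% interval -0.45 to 0.20). Aldh2, the mitochondrial enzyme that clears acetaldehyde, was at 488, 531 and 540 CPM in ethanol lungs and at 524, 379 and 440 CPM in saline lungs, a log2 fold change of 0.21 (95% interval -0.06 to 0.49). The groups overlapped for both genes. Cyp2e1 was at 8.34, 5.40 and 16.3 CPM in ethanol lungs against 6.31, 9.86 and 20.2 CPM in saline lungs, with an interval of -1.59 to 1.03 that leaves a 2-fold difference possible. Catalase (Cat) had a log2 fold change of 0.00 with an interval of -0.30 to 0.29. Of 14 alcohol and aldehyde dehydrogenases tested of 16 listed, 12 had an interval within ±1, and the median log2 fold change was 0.18. Aldh7a1 and Aldh9a1, which act on lysine breakdown and on amino aldehydes, had an unadjusted p below 0.05, with log2 fold changes of 0.46 and 0.49 and adjusted p of 0.815 and 0.822. Among 7 other enzymes of ethanol and acetate handling, 0 had an unadjusted p below 0.05.

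Among AHR targets, Cyp1a1 was several times higher in 2 of the 3 ethanol lungs, and no target passed the test. Cyp1a1, the leading AHR target and a P450 of foreign aromatic compounds, was at 4.06, 55.3 and 44.0 CPM in ethanol lungs and at 6.61, 7.67 and 2.04 CPM in saline lungs. Ethanol 13 and 14 lay far above every saline value, while ethanol 12 lay within the saline range. The log2 fold change was 2.67 ± 0.72 (95% interval 1.14 to 4.20), with an unadjusted p of 0.00196 and an adjusted p of 0.592. Without ethanol 12, it was 3.20, with an adjusted p of 0.00159. Ethanol 12 was the only ethanol animal at saline level, so leaving it out had to widen the difference. That fit is therefore a description and no support for a difference. Means in the PG and VEA groups were 0.906 to 3.79 CPM, so the VEA animals, whose control was ethanol, did not have the high levels of ethanol 13 and 14. Cyp1b1, a related P450, was at 6.92, 6.37 and 6.04 CPM in ethanol lungs and at 1.18, 3.04 and 2.24 CPM in saline lungs, a log2 fold change of 1.58 ± 0.45 (adjusted p = 0.592). Here all 3 ethanol animals, ethanol 12 included, lay above saline. Nqo1, the quinone reductase that AHR and NRF2 share, was at 6.92, 17.6 and 19.4 CPM in ethanol lungs and at 4.44, 7.91 and 3.89 CPM in saline lungs, a log2 fold change of 1.44 ± 0.40 (adjusted p = 0.592). The groups overlapped through ethanol 12 and saline 8. The AHR list of 12 genes also held Ahr itself and its partner Arnt, and 8 of its genes were tested. Of these 8, 3 had an unadjusted p below 0.05, all with higher values in ethanol lungs, and the median log2 fold change was 0.34. Nqo1, 1 of the 3, is also counted among the NRF2 targets. Tiparp and Ahr itself, at log2 fold changes of 0.11 and 0.15, were near 0, and the AHR repressor Ahrr had 13 counts over all 21 libraries, too few to test.

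The promoters of these 3 genes are shown to place the letters that AHR binds. Each is the RefSeq window of assembly GRCm38.p6 that runs from 250 bases before to 50 after the gene's start, written along the gene. Capitals mark the core of the xenobiotic response element, GCGTG or its reverse complement CACGC. Cyp1a1 lies at chr9:57697363-57697662 (plus strand), Cyp1b1 at chr17:79715012-79715311 (minus strand) and Nqo1 at chr8:107403156-107403455 (minus strand).

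Cyp1a1: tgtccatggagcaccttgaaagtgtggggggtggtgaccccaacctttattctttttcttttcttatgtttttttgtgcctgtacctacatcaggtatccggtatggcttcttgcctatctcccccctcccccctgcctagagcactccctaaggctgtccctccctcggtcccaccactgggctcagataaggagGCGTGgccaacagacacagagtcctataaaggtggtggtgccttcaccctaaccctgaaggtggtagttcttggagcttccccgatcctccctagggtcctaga
Cyp1b1: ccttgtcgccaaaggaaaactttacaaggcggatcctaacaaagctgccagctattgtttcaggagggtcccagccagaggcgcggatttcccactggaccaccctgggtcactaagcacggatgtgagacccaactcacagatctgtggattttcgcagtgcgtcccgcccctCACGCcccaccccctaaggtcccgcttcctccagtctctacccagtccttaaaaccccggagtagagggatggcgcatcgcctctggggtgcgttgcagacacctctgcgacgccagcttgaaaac
Nqo1: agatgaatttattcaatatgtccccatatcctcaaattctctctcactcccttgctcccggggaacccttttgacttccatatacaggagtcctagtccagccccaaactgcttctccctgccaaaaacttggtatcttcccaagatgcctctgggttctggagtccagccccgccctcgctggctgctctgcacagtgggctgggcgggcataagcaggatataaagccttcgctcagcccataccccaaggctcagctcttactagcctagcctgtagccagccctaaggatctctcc

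The core occurs once in the Cyp1a1 window and once in the Cyp1b1 window, and not in the Nqo1 window. It occurs in 32.4% of 32851 mouse promoter windows of the same length, so a match in these letters is common. A match describes the sequence and is not evidence of binding.

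NRF2 targets with the clearest values were Cbr3 and Nqo1. Cbr3 (chromosome 16, 93683215 to 93690990), a carbonyl reductase, was at 37.9, 62.3 and 44.3 CPM in ethanol lungs and at 22.8, 28.0 and 29.0 CPM in saline lungs, with no overlap, a log2 fold change of 0.86 ± 0.21 and an adjusted p of 0.571. Gstm1, a glutathione transferase, was at 395, 573 and 534 CPM in ethanol lungs and at 372, 372 and 410 CPM in saline lungs, so that ethanol 12 alone overlapped saline. Slc7a11, the cystine carrier, was at 1.21, 5.40 and 4.86 CPM in ethanol lungs and at 2.66, 2.19 and 0.584 CPM in saline lungs, again with ethanol 12 among the saline values. Of 20 NRF2 targets, 5 had an unadjusted p below 0.05, all higher in ethanol lungs, and the median log2 fold change was 0.12. The classical target Hmox1, haem oxygenase 1, was at 5.27, 6.80 and 5.50 CPM in ethanol lungs against 4.54, 6.82 and 7.98 CPM in saline lungs. Gclc and Gclm, the subunits of the enzyme that begins glutathione synthesis, had log2 fold changes of 0.12 and 0.13. In the PG and VEA groups Nqo1 averaged 2.50 to 5.55 CPM and Cbr3 19.7 to 28.9 CPM, all nearer to saline than to ethanol. Without ethanol 12 and saline 10, a choice made after seeing the data, the list medians were 0.36 for NRF2 targets and 0.68 for the AHR list. In that fit 7 and 4 members had an unadjusted p below 0.05. Because ethanol 12 lay among the saline values for Cyp1a1, Gstm1 and Slc7a11, leaving it out favoured higher medians. These values are a description only.

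Of 16 lung enzymes of foreign compounds, 3 had an unadjusted p below 0.05, all higher in ethanol lungs, and the median log2 fold change was 0.05. Ces1g, a carboxylesterase, was at 8.67, 20.8 and 20.1 CPM in ethanol lungs and at 6.22, 6.57 and 7.49 CPM in saline lungs, a log2 fold change of 1.29 ± 0.37 with an adjusted p of 0.592. Its relative Ces1f was at 8.12, 19.2 and 12.1 CPM in ethanol lungs and at 6.51, 6.33 and 7.01 CPM in saline lungs. Genes of the Ces1 family are alike in sequence, so the split of reads between them is uncertain. Ces1g, Ces1f and Sult1a1, a sulfotransferase, were each without overlap. Cyp2f2, the P450 that marks club cells, was at 2523, 3237 and 2019 CPM in ethanol lungs against 2387, 2167 and 2540 CPM in saline lungs, and the groups overlapped.

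**Figure D4:**
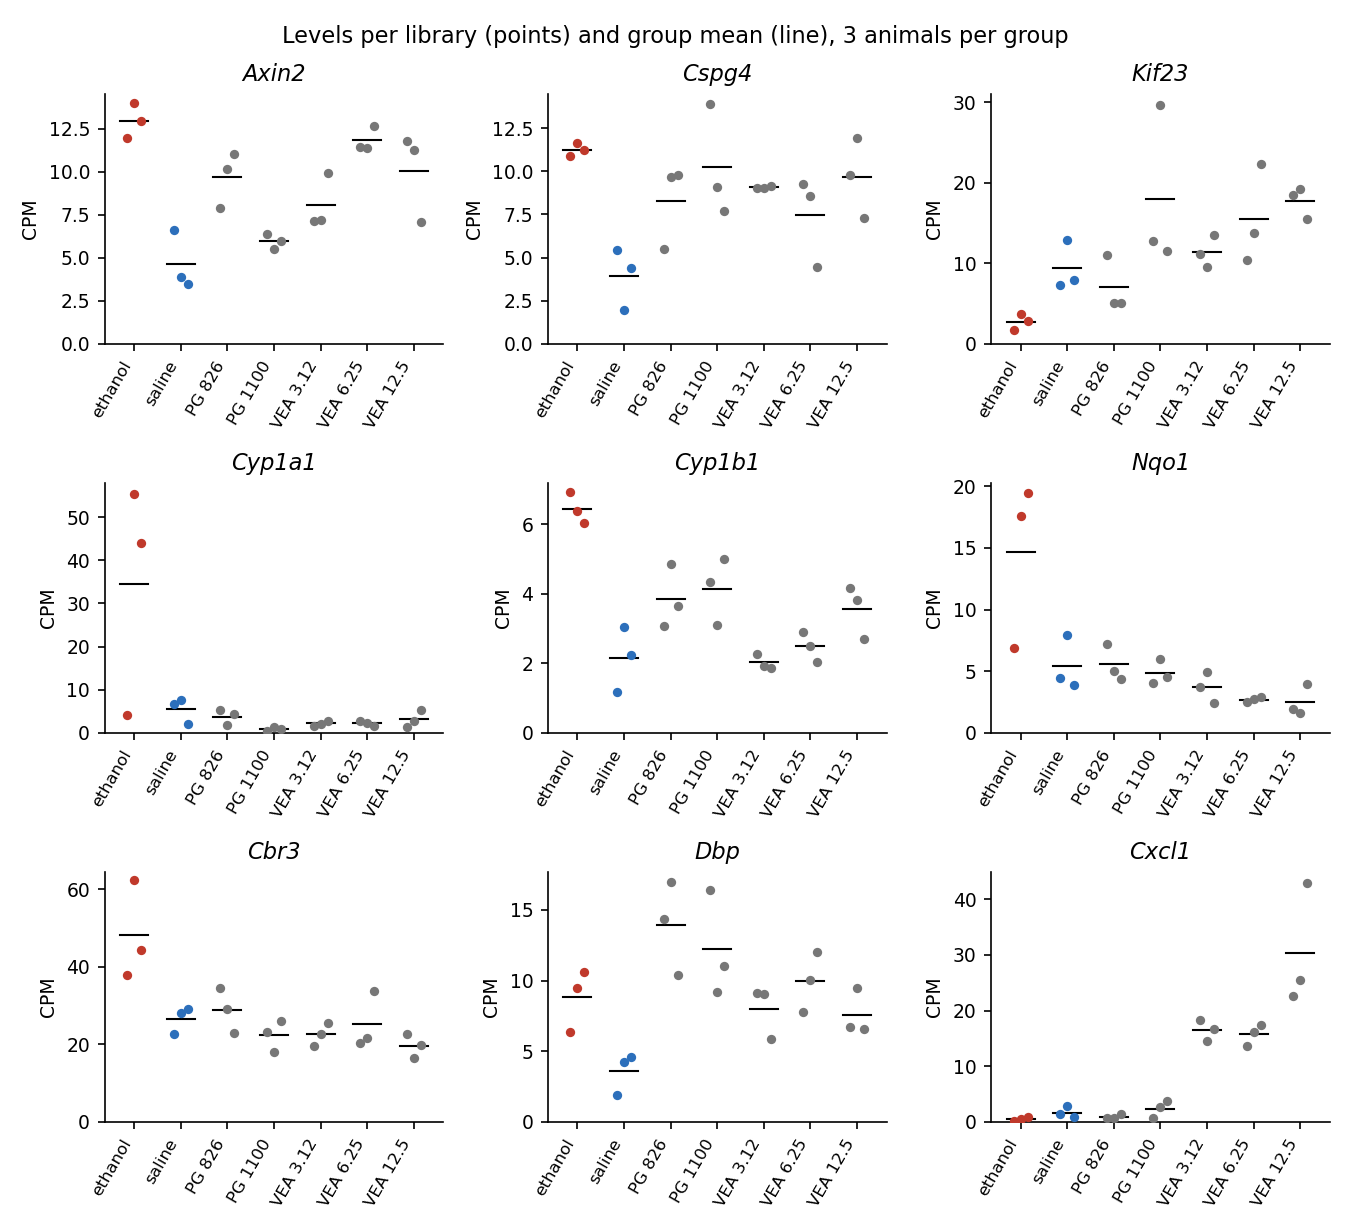
Points are single libraries and lines are group means, in CPM from 0, for 9 genes over the 7 groups of 3 animals. Ethanol animals 13 and 14 stand above all other groups for Cyp1a1 at 55.3 and 44.0 CPM, while for Dbp the saline lungs are the lowest group.

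Several clock output genes had higher values in ethanol lungs, and none passed the test. The circadian clock runs on a loop in which Clock and Arntl (Bmal1) drive period and cryptochrome genes through E-boxes, and the period and cryptochrome proteins in turn hold Clock and Bmal1 back. Dbp is an output of the same E-boxes. Dbp (chromosome 7, 45705088 to 45710203), a D-box transcription factor, was at 6.37, 9.50 and 10.6 CPM in ethanol lungs and at 1.87, 4.26 and 4.57 CPM in saline lungs, a log2 fold change of 1.31 ± 0.34 (adjusted p = 0.571). Per1, a period gene, was at 13.6, 10.7 and 18.8 CPM in ethanol lungs and at 5.33, 5.48 and 9.73 CPM in saline lungs, a log2 fold change of 1.06 ± 0.31 (adjusted p = 0.592). Neither overlapped between the groups. Of 12 genes of this phase, 6 had an unadjusted p below 0.05 with higher values in ethanol lungs (Dbp, Per1, Nr1d2, Hlf, Per3 and Nr1d1) and 1, Bhlhe40, with lower values, and the median log2 fold change was 0.43. Of 7 genes of the opposite phase, 0 had an unadjusted p below 0.05, and the median was -0.22. Clock was at 53.9, 48.3 and 50.8 CPM in ethanol lungs against 63.6, 63.6 and 51.7 CPM in saline lungs, and Arntl at 14.2, 9.07 and 13.5 CPM in ethanol lungs against 15.4, 12.5 and 15.5 CPM in saline lungs. The end of Dbp overlaps Sphk2, a sphingosine kinase on the opposite strand, which was at 32.8, 31.3 and 26.2 CPM in ethanol lungs and at 22.5, 17.3 and 19.1 CPM in saline lungs, so reads of Dbp and Sphk2 cannot be told apart unless counting used strand. In all 5 PG and VEA groups the mean of Dbp, 7.59 to 13.9 CPM, was nearer to ethanol than to saline, so the saline animals were the low ones for Dbp. Nr1d1 was alike, at 26.4 to 38.2 CPM against means of 25.8 in ethanol and 18.2 in saline lungs. Thra lies over the end of Nr1d1 on the opposite strand, and Camta1 over the end of Per3 on the same strand. Reads of these pairs may be mixed too. Per1 averaged 5.91 and 7.66 CPM with VEA at 6.25 and 12.5, near its saline mean of 6.85, and 11.3 to 23.4 CPM in the other groups. Hlf, at 5.33 to 10.6 CPM in these 5 groups, was nearer to its saline mean of 9.94 than to its ethanol mean of 16.3.

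The promoter of Per1 is shown for its E-box, CACGTG, which reads the same on both strands and is in capitals. The window is the first of 2 RefSeq windows of Per1, at chr11:69098699-69098998 (plus strand, GRCm38.p6). The second, at chr11:69099902-69100201, holds 0 of these E-boxes and is not shown.

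Per1: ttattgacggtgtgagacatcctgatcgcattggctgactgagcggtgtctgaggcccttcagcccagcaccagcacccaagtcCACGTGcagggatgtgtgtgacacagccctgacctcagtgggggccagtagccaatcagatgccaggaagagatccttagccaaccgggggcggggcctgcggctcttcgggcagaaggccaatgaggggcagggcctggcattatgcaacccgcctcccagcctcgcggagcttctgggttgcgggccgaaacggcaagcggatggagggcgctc

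An E-box occurs in 7.15% of the 32851 promoter windows. The window of Dbp holds none, which says only that these letters are not in that stretch.

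Of 15 glucocorticoid receptor targets, 3 had an unadjusted p below 0.05, all higher in ethanol lungs, and the median log2 fold change was 0.31. Mt2, a metallothionein that binds zinc, was at 45.3, 89.0 and 77.4 CPM in ethanol lungs and at 37.0, 41.3 and 52.6 CPM in saline lungs, a log2 fold change of 0.69 ± 0.23 (adjusted p = 0.611). The gene model Gm45774 lies over the end of Mt2 on the opposite strand, so reads of that pair may be mixed. Klf9, a Krüppel-like factor, was at 354, 297 and 416 CPM in ethanol lungs and at 285, 256 and 265 CPM in saline lungs, without overlap. Fkbp5, a cochaperone of the receptor, had a log2 fold change of 0.72 ± 0.28 with overlapping groups. Tsc22d3, the leucine zipper gene GILZ, was at 136, 108 and 122 CPM in ethanol lungs against 95.6, 102 and 110 CPM in saline lungs, and Zbtb16 went the other way with a log2 fold change of -1.13 that did not pass either (adjusted p = 0.902), although it did with no low-count filter (adjusted p = 0.0203).

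No cytokine or chemokine passed the test. Cxcl1, a neutrophil chemokine, was at 0.220, 0.432 and 0.863 CPM in ethanol lungs and at 1.38, 2.80 and 0.876 CPM in saline lungs, a log2 fold change of -1.68 ± 0.57 (adjusted p = 0.606). The ethanol values lay below the saline values, although ethanol 14 and saline 10 were nearly equal. Of 16 cytokines and chemokines tested of 19 listed, 4 had an unadjusted p below 0.05, each lower in ethanol lungs: Cxcl1, Tnf, Ccl20 and Ccl3. Tnf and Ccl3 each had no count in ethanol 12 and 13, so their values rest on few reads. The median over the list was -0.09. Il6, Csf2 and Cxcl3 had too few counts to test. Cxcl1 averaged 0.902 and 2.34 CPM with PG at 826 and 1100, and 15.7 to 30.3 CPM in the VEA groups.

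No marker of immune cells passed the test. Of 9 neutrophil genes tested of 12 listed, 1 had an unadjusted p below 0.05, the collagenase Mmp8, at 4.61, 4.64 and 4.42 CPM in ethanol lungs and at 8.09, 9.50 and 4.48 CPM in saline lungs. S100a8, an abundant neutrophil protein, was at 115, 203 and 102 CPM in ethanol lungs against 89.9, 190 and 199 CPM in saline lungs. Of 14 genes of recruited monocytes and macrophages, Apoe alone had an unadjusted p below 0.05, with a log2 fold change of 0.40 and an adjusted p of 0.751. Of 15 alveolar macrophage genes, Cidec alone did, with a log2 fold change of 0.52 and an adjusted p of 0.814. Each of these differences was below 1 in size on the log2 scale. Among 14 dendritic cell and MHC class II genes the one was Clec9a, at 0.51. Among 14 T and NK cell genes, 10 B and plasma cell genes, 6 eosinophil and mast cell genes and 17 interferon-stimulated genes there was none. Of 12 acute phase and mucosal defence genes, Bpifb1 alone had an unadjusted p below 0.05, at 77.8, 50.9 and 23.5 CPM in ethanol lungs against 23.4, 15.7 and 34.8 CPM in saline lungs, highest in ethanol 12.

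Matrix genes had a median slightly above 0, and leaving out saline 6 moved their counts. Col1a1, the main fibrillar collagen chain, was at 112, 136 and 117 CPM in ethanol lungs and at 113, 64.6 and 59.2 CPM in saline lungs, a log2 fold change of 0.62 ± 0.20 (adjusted p = 0.599). Saline 6 lay with the ethanol animals, while saline 8 and 10 were lower. Of 20 matrix and fibrosis genes, 4 had an unadjusted p below 0.05 (Col1a1, the crosslinking enzyme Lox, Col6a1 and the gelatinase Mmp2), all higher in ethanol lungs, with a list median of 0.16. Without saline 6, 10 members did, and the list median was 0.42. Over all genes tested, too, that fit had more genes at an unadjusted p below 0.05 than the fit with every library. The rise was therefore not confined to matrix genes, and whether it was larger among them was not tested. Lox was at 19.4, 27.6 and 20.7 CPM in ethanol lungs and at 17.3, 14.0 and 13.8 CPM in saline lungs, with no overlap. Col3a1 and elastin (Eln) had log2 fold changes of 0.08 and 0.01.

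Among lymphatic and endothelial genes, Lyve1 and Vwf had the smallest p of their lists, and neither passed the test. Lyve1, a hyaluronan receptor of lymphatic vessels and some macrophages, was at 304, 553 and 534 CPM in ethanol lungs and at 279, 253 and 221 CPM in saline lungs, without overlap, a log2 fold change of 0.88 ± 0.32 (adjusted p = 0.732). The lymphatic receptor Flt4 was at 10.2, 13.2 and 13.8 CPM in ethanol lungs against 13.1, 7.30 and 6.13 CPM in saline lungs. Of 9 lymphatic and mesothelial genes, Lyve1 alone had an unadjusted p below 0.05. Vwf, the clotting factor of endothelium, was at 76.1, 135 and 94.8 CPM in ethanol lungs and at 77.7, 66.1 and 59.5 CPM in saline lungs, the only 1 of 16 endothelial genes with an unadjusted p below 0.05. Pecam1, a general endothelial marker, had a log2 fold change of 0.00 with a 95% interval of -0.28 to 0.27. Of 11 fibroblast genes, Pi16 alone had an unadjusted p below 0.05 (log2 fold change 0.86, adjusted p = 0.815), and of 11 smooth muscle and pericyte genes, Cspg4 and Higd1b did, in opposite directions.

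Differences in most alveolar and club cell genes were bounded within a 2-fold change, as is usual for abundant genes. All 11 type I cell genes and all 11 club cell genes tested had an interval within a 2-fold change, as did 12 of 13 surfactant and type II cell genes and 11 of 13 ciliated cell genes. Over all genes this share was 97.1% at 20 to 100 CPM and 99.0% at 100 CPM or more. The counts therefore do not set these lists apart. Ager, which marks type I cells, was at 2737, 2695 and 2361 CPM in ethanol lungs and at 2858, 3007 and 2517 CPM in saline lungs, with a 95% interval of -0.37 to 0.16. Scgb1a1 had an interval of -0.29 to 0.32 and Sftpb one of -0.33 to 0.29. Sftpc, with a log2 fold change of -0.30 ± 0.16, had an interval of -0.63 to 0.02. Slc34a2, the phosphate carrier of type II cells, had an unadjusted p below 0.05, at 497, 378 and 418 CPM in ethanol lungs against 616, 451 and 509 CPM in saline lungs (log2 fold change -0.29, adjusted p = 0.815). Of 13 genes of transitional alveolar epithelium, a state seen in repair, 0 had an unadjusted p below 0.05, and Krt8 was at 108, 88.3 and 78.3 CPM in ethanol lungs against 102, 107 and 105 CPM in saline lungs. Goblet and mucous genes were few and thin. Of 10 tested, Bpifb1 alone had an unadjusted p below 0.05, and the list median of 0.19 became -0.45 without ethanol 12 and 0.91 without saline 10. Lower levels of a marker can stand for fewer cells or for less RNA per cell, which bulk tissue cannot tell apart.

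General stress genes gave no common direction. The chaperone gene Hspa1b was at 12.2, 16.3 and 21.1 CPM in ethanol lungs against 8.58, 9.25 and 3.11 CPM in saline lungs. Its copy Hspa1a was at 6.37, 14.8 and 17.5 CPM in ethanol lungs against 8.68, 5.72 and 5.84 CPM in saline lungs. Both had an unadjusted p below 0.05, while the other 10 of 12 heat shock genes had log2 fold changes below 0. The Hspa1a and Hspa1b copies are almost identical, so their counts cannot be firmly divided. Of 16 integrated and ER stress genes, 1, the transcription factor Ddit3, had an unadjusted p below 0.05, at 48.8, 40.7 and 40.7 CPM in ethanol lungs against 62.2, 55.6 and 47.4 CPM in saline lungs. Of 18 immediate early genes the one was Klf4 (log2 fold change 0.37), and of 12 hypoxia and glycolysis genes it was Pfkfb3 (0.47). Of 16 fatty acid genes it was Ppara (-1.03), at 7.24, 2.48 and 6.58 CPM in ethanol lungs against 11.6, 13.3 and 8.37 CPM in saline lungs. Of 17 cell cycle genes, Ncapg and Rrm2 were higher and Ccnb1 lower at an unadjusted p below 0.05, with a list median of -0.28. All of these had adjusted p of 0.637 or more.

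No marker of tissue from outside the lung passed the test. None of 11 erythroid, 6 platelet, 13 heart and skeletal muscle, 9 adipocyte or 6 liver genes, nor the 2 testable genes of upper airway gland, thyroid and oesophagus or the 1 of basal and squamous cells, had an unadjusted p below 0.05. Adiponectin (Adipoq), which marks fat, was at 37.9, 31.6 and 57.9 CPM in ethanol lungs and at 6.71, 20.6 and 81.2 CPM in saline lungs. Alb, the albumin of liver, was at 9.22, 4.97 and 2.27 CPM in ethanol lungs against 1.68, 2.19 and 2.53 CPM in saline lungs, highest in ethanol 12, and the liver list had the highest list median, 0.95. Over all 43 lists, 503 distinct members passed the count filter of 544 symbols in the files, and of these 39 (7.75%) had higher and 12 (2.39%) lower values at an unadjusted p below 0.05, beside 3.35% and 2.70% over all genes tested. The lists were chosen with earlier results of these data known, so these shares are a description only.

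**Figure D5:**
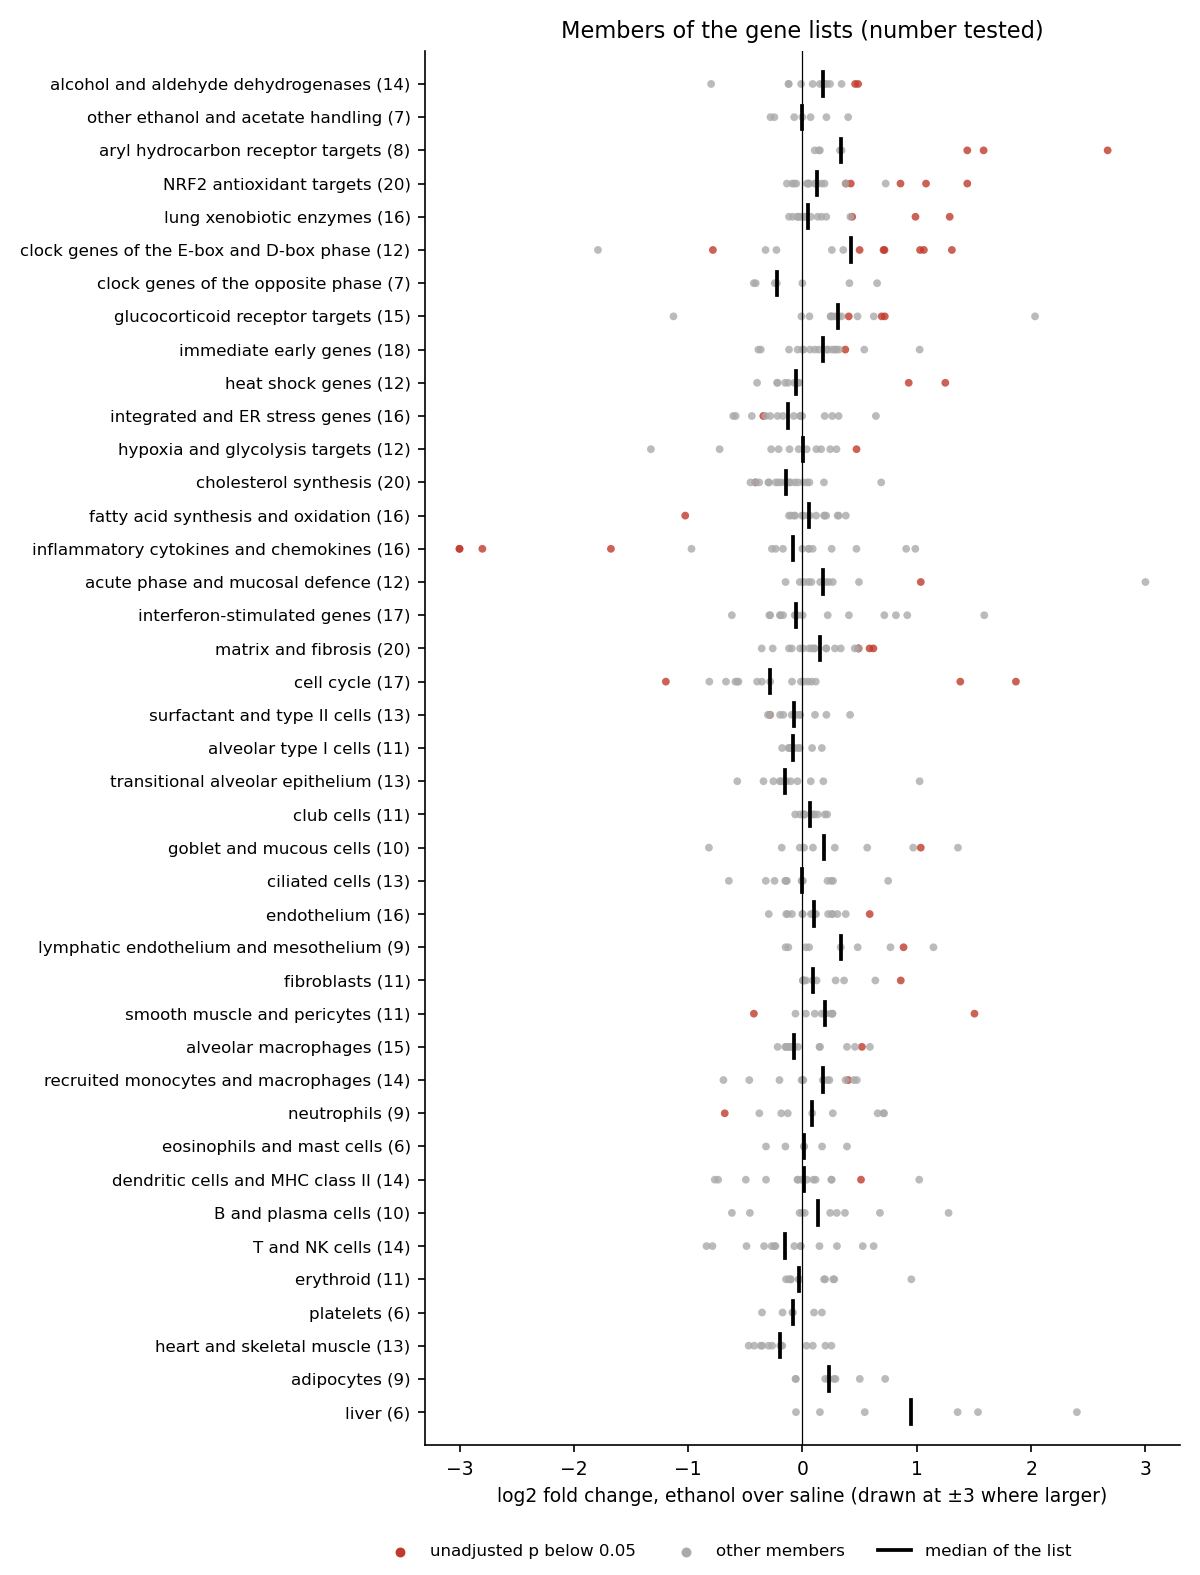
Each row is a gene list with the number of its members tested, points are members by log2 fold change of ethanol over saline, red where the unadjusted p was below 0.05, and black bars are medians. Most medians lie near 0. Red points to the right number 6 in the E-box and D-box clock list, 5 in the NRF2 list and 4 in the matrix list. The AHR, xenobiotic enzyme and glucocorticoid lists hold 3 each. The lists were chosen with earlier results of these data known.

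Levels in the groups given PG or VEA were set beside the 20 genes of smallest p. For the 10 genes higher in ethanol lungs, 11 of 30 means of VEA groups and 12 of 20 means of PG groups were nearer to ethanol than to saline on the log2 scale. For the 10 lower genes the counts were 17 of 30 and 6 of 20. For Cbr3, Nqo1, Kif23, Mrto4 and Elmo2 the means of all 5 groups were nearer to saline. For Dbp, Cspg4 and Il18r1 the means of all 5 groups were nearer to ethanol.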

How the data were processed

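Per the labels' protocols, libraries were Lexogen QuantSeq 3′ end libraries made from 500 ng of total RNA. Per the submitters' processing notes, Bowtie2, bedtools and the assembly mm10 were used, with versions and gene annotation not given in the sources used here. The files deposited by the authors hold raw counts per gene symbol, 23282 rows each, and rows of the 35 symbols on several rows were summed. In R 4.3.3, edgeR 4.0.16 kept 14727 genes (filterByExpr), scaled libraries by TMM and fitted a mean for each of 7 groups to all 21 libraries with robust quasi-likelihood, with 14 residual degrees of freedom and a biological coefficient of variation of 23.8%. The contrast was ethanol minus saline. Adjusted p is Benjamini-Hochberg over all genes tested, called below 0.05. The SE is the size of the log2 fold change over the square root of F, and 95% intervals use it. A gene's level is TMM-scaled CPM. No interval was given to 9 genes with no count in either group. At 5 CPM a library held 41.1 to 51.4 counts in these groups.

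Genes were named by smallest p, 10 in each direction among genes averaging 5 CPM or more in their higher group, and up to 6 members for each list, beside classical members named for their role. Unnamed gene models, small RNA and Rn-numbered symbols were not named. Members and lists were chosen with earlier results of these data known. Alternatives were RLE factors, DESeq2 1.42.0, limma-voom (limma 3.58.1), other count filters, fewer groups in the fit, Rn45s and haemoglobin left out, and libraries left out. Libraries of a group differed beyond counting error, with a chi-square per degree of freedom of 13.2 to 16.6 between ethanol and 18.6 to 43.0 between saline libraries. The code was tested on simulated data. Coordinates are GENCODE M21 on GRCm38.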

Additional observations from a re-analysis of the deposited data

How the results depend on the processing

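The count of called genes, 0, was also 0 with RLE size factors, limma-voom and a filter of 1 CPM in 3 libraries. It stayed 0 in fits without the VEA, the PG or the Rn45s and haemoglobin counts. A fit of the 6 libraries alone and a fit without saline 8 and ethanol 13 gave 0 as well. Also requiring a log2 fold change of at least 1 could only leave the count at 0, so that setting is no check. The count was 1 with DESeq2 (Axin2), 1 without ethanol 12 and saline 10 together (Cyp1a1, chosen after seeing the data), and 17 with no low-count filter, 13 higher and 4 lower, all named in the report. Leaving out 1 library at a time gave 0 to 2 calls: Axin2 and Col1a1 without saline 6, and Cyp1a1 without ethanol 12. For the gene called, the library left out was the one of its group nearest the other group. Leaving it out therefore had to widen the difference. Why these fits differ was not tested.

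The 892 genes with an unadjusted p below 0.05 became 532 in a fit of the 6 libraries alone, and 757 to 1608 with 1 library left out, the highest without saline 6. For single genes, 954 alternative values kept their direction and side of the threshold and 15 gained a call. For list medians, 666 moved by less than the spread between replicates and 31 by more. No paired analysis was possible because the numbers in the sample titles name animals and the groups share none. Depth limits genes under 5 CPM most. The scalings tried moved the median log2 fold change of all genes by less than 0.01.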

Other observations

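Some genes had counts in every ethanol library and none in saline libraries, or the reverse, and these were chosen after their values were seen. Pglyrp2, a peptidoglycan amidase, had 40 counts over the ethanol lungs and 0 over the saline lungs. That is 13.8-fold higher when saline is set to a floor of 3 counts over the group. Eomes, a transcription factor of NK and T cells, had 44 counts against 0, 15.2-fold higher on the same floor. In the other direction Pik3c2g, a lipid kinase, had 0 counts in ethanol lungs against 32 in saline lungs. With the floor set for ethanol, it was 10.3-fold lower. Oip5, a centromere protein, had 0 against 18, 5.79-fold lower. In the PG and VEA groups Pglyrp2 averaged 0.492 to 1.09 CPM and Eomes 0.841 to 2.21 CPM, so saline was the lowest group for both. Pik3c2g averaged 0.0349 to 0.741 CPM there and Oip5 1.30 to 4.01 CPM, so ethanol was the lowest group for both. None of these genes passed the edgeR test, with adjusted p of 0.571 to 0.593, although Eomes did with no low-count filter (adjusted p = 0.0295). These folds rest on the floor set for the group without counts. They allow neither for counting error in the other group nor for spread between animals, so they are not lower bounds.

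Ethanol 12 was the lowest of its group for Cyp1a1, Nqo1, Slc7a11, Ces1g, Ces1f, Mt2 and Lyve1, and the highest for Bpifa1, Ltf and Krt15. This grouping of genes was noticed in the values and not tested.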
